A study of Mus musculus with 9 samples.

Results

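A set of 7 genes of 22195 with a listed transcript was examined: Gm5148, 1810049J17Rik, Gm26566, Gm9573, Cnbd2, Gm5591 and Tlcd2. They were chosen by symbol for a large fall in antibody-treated tumors against the IgG control. That difference is therefore described here without a p-value, and calls on it carry no further evidence. The RNA was that of skin tumors, grown as subcutaneous allografts of the mouse melanoma line YUMMER1.7 in C57BL/6J animals. Treatment began at a tumor volume of 20 to 50 mm3 and was an anti-B7-H3 antibody, an anti-PD1 antibody or an IgG isotype control. B7-H3 and PD1 are immune checkpoint proteins. Each group had 3 libraries of total RNA depleted of ribosomal RNA, 9 in all, and no label says that they came from separate mice. P-values therefore measure only the spread between these samples, which may be technical.

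Most of these genes are known only as predicted or cDNA-derived open reading frames with no established function. Gm9573 has the RefSeq synonym Muc21, and mucins are large glycoproteins of epithelial surfaces whose protein cores hold tandem repeats. Cnbd2 encodes a protein with a cyclic nucleotide-binding domain that is known in mice for its part in sperm function. Tlcd2 encodes a membrane protein with a TLC domain, a fold shared with ceramide synthases, and acts on the composition of membrane phospholipids. None of the 7 is an established melanoma or immune cell gene. The labels name a bulk tumor, in which more cells of a type and more RNA per cell cannot be told apart.

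The IgG libraries stood apart before any of these genes was considered. Transcripts of 12 major satellite genes, which hold a tandem DNA repeat found beside mouse centromeres, took 5.24 to 28.2% of reads with anti-B7-H3, 14.6 to 38.2% with anti-PD1 and 87.0 to 92.0% with IgG. Estimated reads outside those genes came to 7239044, 13602962 and 14408350 for anti-B7-H3, 5326276, 8317751 and 9583684 for anti-PD1, and 2170236, 3546706 and 1252540 with IgG. Levels are given below as RPKM, reads per kilobase of coding sequence scaled to the reads outside the satellite genes, and as CPM, which is not scaled to length. Reads on 1510 olfactory and vomeronasal receptor genes, which are normally silent outside chemosensory tissue, served as a background level: 0.025 to 0.123 RPKM with anti-B7-H3, 0.048 to 0.173 RPKM with anti-PD1 and 0.472 to 2.99 RPKM with IgG. Satellite share, background and treatment cannot be told apart at the level of the groups. Defining pigment genes were near 0 in these melanomas, since Mlana had 0, 3 and 1 reads in all anti-B7-H3, anti-PD1 and IgG libraries together and Tyr had 0, 5 and 9. Of the 9 melanocyte markers examined, Mitf had the most reads, at 439, 360 and 105 in the same order of groups.

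The 7 genes fell into 3 kinds by sequence. Coding sequences were compared in words of 31 bases with all transcripts of GENCODE M21 on the GRCm38 build. Gm5148, 1810049J17Rik and Gm26566 are short reading frames that run on the opposite strand of another gene's sequence, with 75.6, 97.2 and 100% of their words reverse complementary to Rps23, Golph3 and Klhl9. Gm9573 and Gm5591 are repetitive, the first within itself and the second as 1 copy of a gene family. Cnbd2 and Tlcd2 are spliced genes with a stretch inside the coding sequence that recurs in many other transcripts. Of 21888 genes with words, 1.33% had at least 50% of their words on the opposite strand of another gene and 12.7% on the same strand, while 62.6% shared no word.

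The stretches opposite the start codons of Rps23, Golph3 and Klhl9 are shown because they are the sequence each pair shares. Each pair is given 5′ to 3′ on its own strand, and capitals mark the start codon of the named gene and its complement in the small reading frame. The Gm26566 stretch is shorter because that reading frame begins 29 coding bases into Klhl9.
Gm5148 coding bases 271 to 330, chr3:37714740-37714799, minus strand: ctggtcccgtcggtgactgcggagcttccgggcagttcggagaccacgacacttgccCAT
Rps23 coding bases 1 to 60, chr13:90923196-90923642 across an intron, plus strand: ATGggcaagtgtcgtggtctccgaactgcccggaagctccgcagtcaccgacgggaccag
1810049J17Rik coding bases 109 to 168, chr15:12321732-12321791, minus strand: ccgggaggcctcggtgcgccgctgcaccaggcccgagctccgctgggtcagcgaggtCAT
Golph3 coding bases 1 to 60, chr15:12321732-12321791, plus strand: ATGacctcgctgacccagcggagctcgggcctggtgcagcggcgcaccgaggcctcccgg
Gm26566 coding bases 1 to 29, chr4:88721974-88722002, plus strand: atgtcgccgttacccagagacaccttCAT
Klhl9 coding bases 1 to 29, chr4:88721974-88722002, minus strand: ATGaaggtgtctctgggtaacggcgacat

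For the other genes the repeated parts are shown. In the Cnbd2-202 and Tlcd2-201 lines capitals mark bases that also occur in transcripts of other genes, on the strand of Cep85 for Cnbd2-202 and opposite Hexdc for Tlcd2-201. In the other two lines of Gm9573, which follow the first without a gap, capitals mark bases that differ from the first.
Cnbd2-202 coding bases 900 to 989, chr2:156356536-156356625, plus strand: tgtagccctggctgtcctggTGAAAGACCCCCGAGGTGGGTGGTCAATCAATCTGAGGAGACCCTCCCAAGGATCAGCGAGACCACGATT
Tlcd2-201 coding bases 766 to 855, chr11:75469898-75470485 across an intron, plus strand: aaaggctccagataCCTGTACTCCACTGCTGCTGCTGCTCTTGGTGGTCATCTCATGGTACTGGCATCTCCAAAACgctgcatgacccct
Gm9573 coding bases 2247 to 2291, chr17:35621002-35621046, minus strand: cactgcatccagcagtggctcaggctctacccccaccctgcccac
Gm9573 coding bases 2292 to 2336, chr17:35620957-35621001, minus strand: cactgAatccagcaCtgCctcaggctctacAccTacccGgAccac
Gm9573 coding bases 2337 to 2381, chr17:35620912-35620956, minus strand: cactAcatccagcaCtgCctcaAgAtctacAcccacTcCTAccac

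Across the set, every antibody library lay below every IgG library on the scale of TMM-normalised CPM for 7 of 7 genes, where 5.88% of the 12980 genes tested showed the same separation (8.56% for the anti-B7-H3 libraries alone and 11.9% for the anti-PD1 libraries alone). With edgeR's quasi-likelihood test and Benjamini-Hochberg adjustment at 0.05, 7 of 7 were called lower with anti-B7-H3 against IgG (0.601% of tested genes were called lower and 0.0077% higher) and 7 of 7 with anti-PD1 against IgG (0.401% lower and 0.0077% higher). These counts follow from how the genes were chosen and carry no further evidence. The same holds for fits that left out 1 library at a time, which use the libraries that served to choose the genes. In those fits between 4 and 7 of the 7 were called lower in either comparison. Gm5148, 1810049J17Rik, Gm26566 and Cnbd2 were called in 9 of 9 such fits in both. Gm9573 was called in 7 of 9 for anti-B7-H3 and in 5 of 9 for anti-PD1. Gm5591 was called in 3 of 9 for anti-B7-H3 and in 2 of 9 for anti-PD1, and Tlcd2 in 4 of 9 with each.

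The description "nearly confined to IgG" held for 4 of the 7. Of all estimated reads outside satellite genes, 10.6% lay in the IgG libraries, while IgG held 96.6% of Gm26566 reads, 95.1% of Gm9573 reads, 92.6% of Gm5148 reads and 92.1% of 1810049J17Rik reads. It held 68.6% of Gm5591 reads, 63.5% of Cnbd2 reads and 50.8% of Tlcd2 reads. In the authors' deposited TPM, which count satellite reads in the total, the 6 antibody libraries lay below the IgG libraries for the first 4 genes only, a separation that 0.193% of tested genes showed. For Cnbd2, Gm5591 and Tlcd2 the deposited TPM overlapped between groups. Cnbd2 ranged from 3.30 to 8.97 TPM over the antibody libraries and from 6.44 to 9.66 TPM over IgG. Tlcd2 ranged from 5.33 to 18.5 TPM over the antibody libraries and from 7.82 to 13.3 TPM over IgG.

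**Figure D1:**
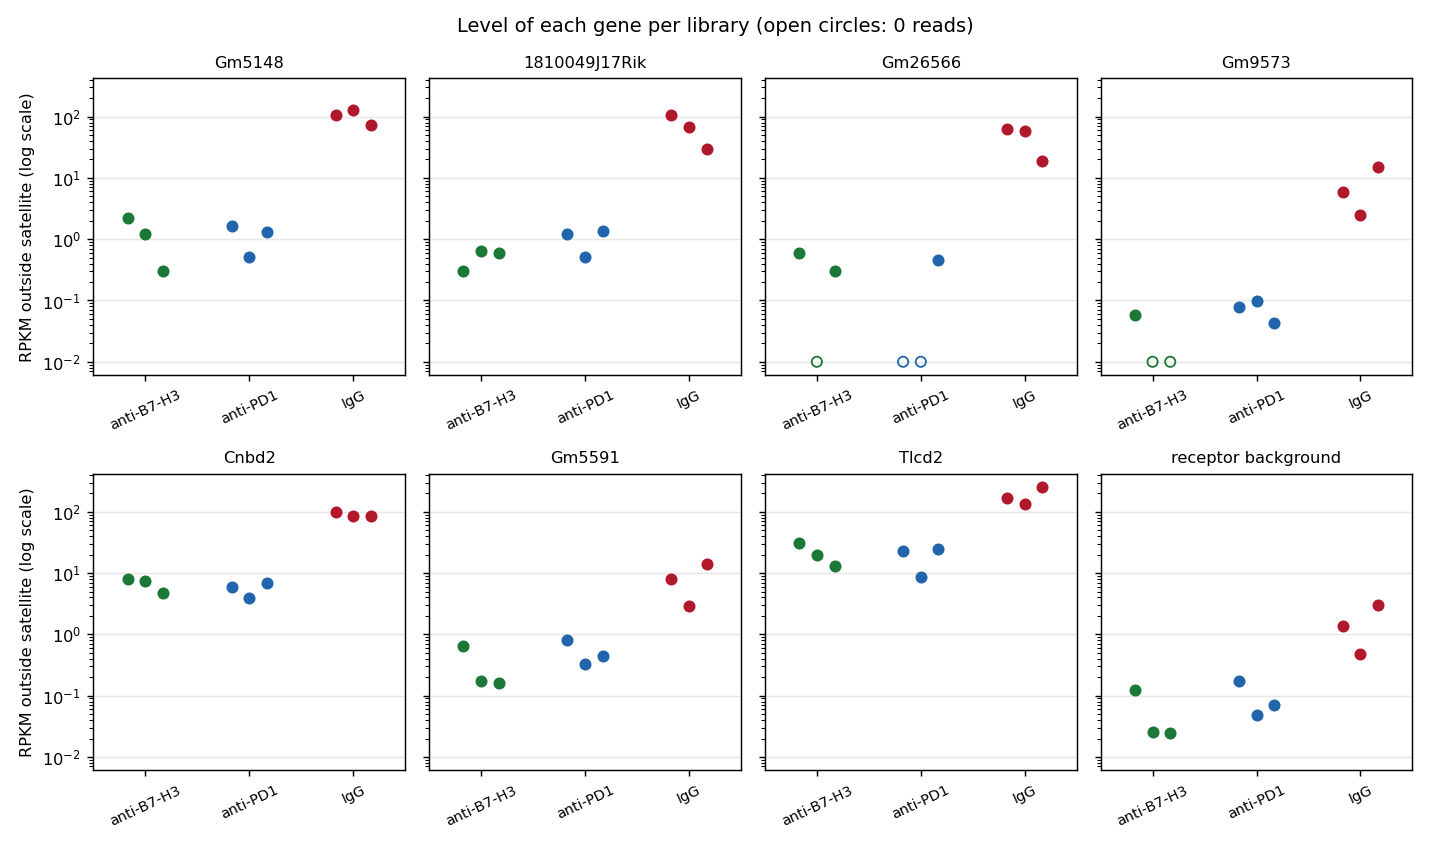
Level of each gene in every library as RPKM outside the satellite genes on a log axis, with the receptor background in the last panel and open circles at the bottom for libraries with 0 reads. The IgG libraries are above all antibody libraries in every panel, and among the IgG libraries Gm9573, Gm5591 and Tlcd2 share the order of the receptor background.

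Gm5148 lies on chromosome 3 (chr3:37714190-37724490, minus strand), and its 465 coding bases fill 1 of 3 exons. That exon lies opposite Rps23-ps1, a processed pseudogene of Rps23 at chr3:37714740-37715164, and 70.1% of its words also occur on its own strand in 2 other genes. It had 7.47, 7.73 and 1.99 reads with anti-B7-H3, 4.003, 2.01 and 5.85 reads with anti-PD1, and 108, 214 and 42.1 reads with IgG. The 2 antibody groups overlapped, and the lowest IgG library was above every antibody library. The log2 fold change was -6.80 ± 0.45 (SE) for anti-B7-H3 and -6.75 ± 0.47 for anti-PD1, both against IgG.

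Rps23, a protein of the small ribosomal subunit encoded on chromosome 13, was abundant in all groups. Its level was 1539, 1644 and 1627 RPKM with anti-B7-H3, 1948, 2600 and 1642 RPKM with anti-PD1, and 1083, 1483 and 834 RPKM with IgG. Neither comparison with IgG was past the threshold (log2 fold change 0.23 ± 0.21, adjusted p = 0.749, with anti-B7-H3, and 0.60 ± 0.21, adjusted p = 0.176, with anti-PD1). Set against Rps23, Gm5148 was nearly constant over the IgG libraries: its level was 0.0789% ± 0.0630 of that of Rps23 with anti-B7-H3, 0.0610% ± 0.0355 with anti-PD1 and 9.10% ± 0.674 with IgG (SD, n = 3 each). The 2 genes that share its strand had few reads in any group. C330021F23Rik had 15.5, 6.16 and 7.54 reads, and Gm2174 had 8.36, 2.99 and 2.20 reads, summed over the anti-B7-H3, anti-PD1 and IgG libraries.

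1810049J17Rik is a single exon on chromosome 15 (chr15:12321438-12321899, minus strand), all 462 bases of it coding. Of those, 168 bases lie opposite coding sequence of Golph3 (chr15:12321450-12351591, plus strand), which encodes a Golgi protein that helps retain glycosylation enzymes, and 282 lie opposite its untranslated part. It had 1, 4 and 4 reads with anti-B7-H3, 3, 2 and 6 reads with anti-PD1, and 108, 109 and 17.1 reads with IgG. The antibody groups were low throughout, and the third IgG library was the lowest of the IgG libraries. The log2 fold change against IgG was -7.11 ± 0.50 for anti-B7-H3 and -6.25 ± 0.49 for anti-PD1.

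Golph3 itself had a mean of 74.2 ± 12.0 RPKM with anti-B7-H3, 75.1 ± 13.2 RPKM with anti-PD1 and 70.5 ± 5.85 RPKM with IgG (SD, n = 3 each), and the groups overlapped. Its log2 fold change against IgG was -0.23 (95% interval -0.74 to 0.28, adjusted p = 0.784 in edgeR) for anti-B7-H3 and -0.21 (-0.72 to 0.30, adjusted p = 0.668) for anti-PD1. The level of 1810049J17Rik was 0.490, 0.823 and 0.713% of that of Golph3 for anti-B7-H3, 1.39, 0.686 and 2.20% for anti-PD1, and 144, 104 and 40.7% with IgG. In 2 of 3 IgG libraries, then, more reads per coding base were assigned to the small reading frame than to Golph3.

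Gm26566 is a single exon on chromosome 4 (chr4:88721805-88722842, plus strand) with 462 coding bases. Its coding sequence lies within Klhl9 (chr4:88718292-88722465, minus strand), which encodes a substrate adaptor of a cullin ubiquitin ligase, with 433 bases opposite the untranslated part of Klhl9 and 29 opposite its coding part. It had 2, 0 and 2 reads with anti-B7-H3, 0, 0 and 2 reads with anti-PD1, and 63.2, 94.3 and 11 reads with IgG. A library at 0 reads allows up to 3 reads, which is 0.221 CPM outside satellite genes in the second anti-B7-H3 library and 0.563 and 0.361 in the first and second anti-PD1 libraries. On pooled reads, the IgG level was 280-fold that with anti-PD1 (exact 95% interval 76.3 to 2331, from 168 reads against 2) and 212-fold that with anti-B7-H3 (81.4 to 789). These intervals cover counting error only.

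Klhl9 had 72.6 ± 6.20 RPKM with anti-B7-H3, 90.6 ± 14.7 RPKM with anti-PD1 and 53.0 ± 6.36 RPKM with IgG (SD, n = 3 each). The antibody libraries were above the IgG libraries in each case, but the log2 fold changes of 0.16 ± 0.19 and 0.48 ± 0.19 were not past the threshold (adjusted p = 0.832 for anti-B7-H3 and 0.213 for anti-PD1, edgeR). The level of Gm26566 was 0.877, 0 and 0.377% of that of Klhl9 for anti-B7-H3, 0, 0 and 0.609% for anti-PD1, and 130, 95.5 and 37.7% with IgG. The IgG libraries kept the order seen for 1810049J17Rik over Golph3, highest in replicate 1 and lowest in replicate 3.

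**Figure D2:**
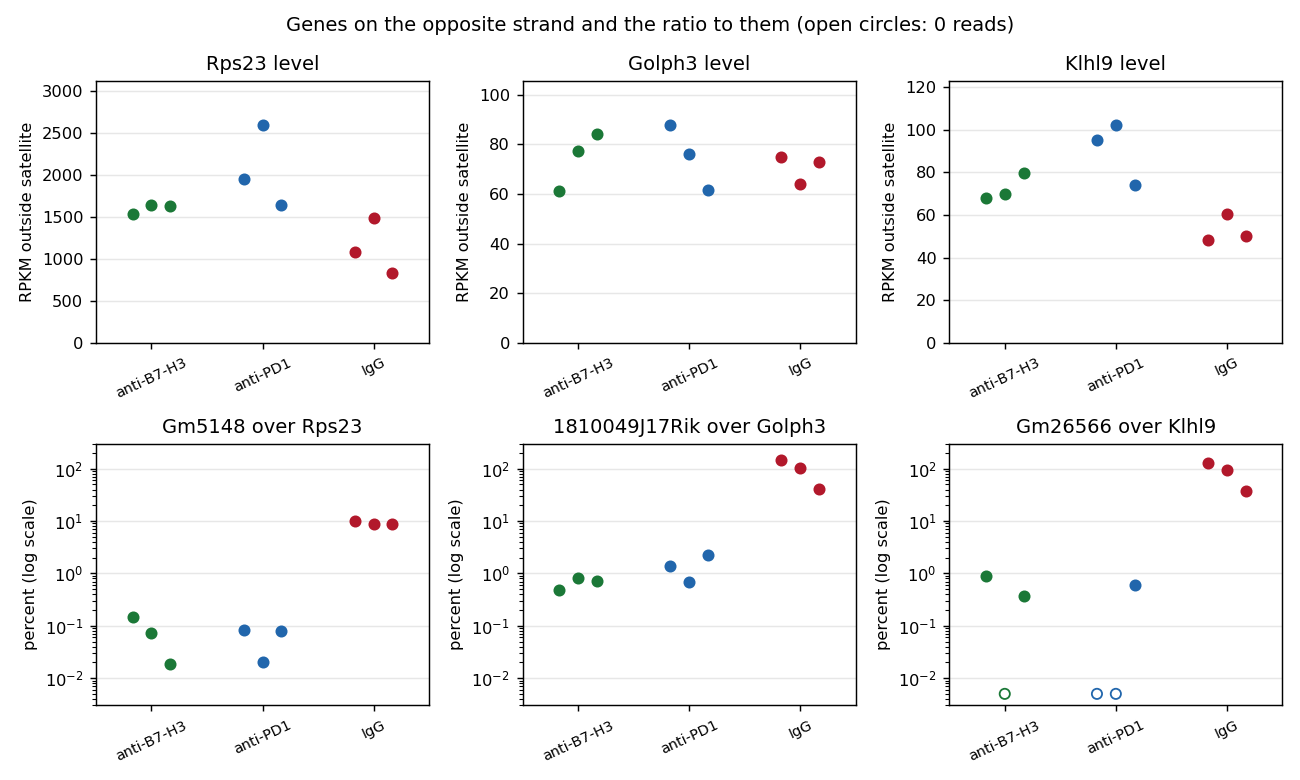
Top: RPKM outside the satellite genes of Rps23, Golph3 and Klhl9 in every library on linear axes from 0. Bottom: the level of Gm5148, 1810049J17Rik and Gm26566 as a percentage of the gene on the opposite strand, on a log axis with open circles for 0 reads. Golph3 overlaps between groups, whereas the percentages reach 8.66 to 144 in IgG libraries and at most 2.20 in antibody libraries.

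The sources used here do not say whether the libraries or the counting kept strand. Reads of a small reading frame and of the gene opposite it therefore cannot be told apart by strand. The listed lengths are coding lengths for 91.9% of the listed transcripts that matched GENCODE M21. Untranslated sequence of Golph3 and Klhl9 thus had no entry of its own in the deposited counts, while the reading frames opposite it did. The part of this in the difference between groups was not tested.

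The arrangement is not unique to the 3 genes. Outside the satellite genes, 285 genes had at least 50% of their words on the opposite strand of another gene, and 147 of them were tested. With anti-B7-H3 against IgG 12 were called lower (8.16%, against 0.601% of all genes tested) and 0 higher, with a median log2 fold change of -0.22, against 0.03 over all genes tested. With anti-PD1 against IgG 8 were called lower (5.44%, against 0.401%) and 0 higher, with a median of -0.30, against 0.01 over all genes. Without Gm5148, 1810049J17Rik and Gm26566 the count was 9 of 144 (6.25%) and 5 of 144 (3.47%). This grouping was drawn up after values had been seen, so no test is given.

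Some of the others called lower had few reads outside IgG, and these were picked after their values were seen. Gm9747, with 100% of its words opposite another gene, had 1 read in the anti-B7-H3 libraries, 3 in the anti-PD1 libraries and 74 in the IgG libraries. Gm10401, also at 100%, had 1, 0 and 86.0 reads, and Gm26602, at 99.6%, had 1, 2 and 119 reads in the same order of groups. Ptger1, a prostaglandin E receptor gene with 97.8% of its words opposite another gene, had 46, 17 and 172 reads. Others called lower had many reads in the antibody groups: Bhlhe41, which encodes a circadian transcription repressor and has 51.0% of its words opposite another gene, had 265, 183 and 134 reads, and Gm21962, with 91.7% opposite and 93.1% on its own strand, had 10078, 8953 and 48287 reads. Summed over all 285 genes, the level was 17162 to 20670 CPM with anti-B7-H3, 18764 to 24923 CPM with anti-PD1 and 39022 to 152308 CPM with IgG, so IgG lay above the antibody libraries. Over the 154 of them with no word shared on their own strand, it was 1219 to 1499 CPM with anti-B7-H3, 1021 to 1324 with anti-PD1 and 1002 to 1531 with IgG, so the groups overlapped.

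Gm9573 (chr17:35617923-35626637, minus strand) has 4821 coding bases in 3 exons and shares no word with another gene. A repeat with a period of 45 bases runs from coding base 132 to 4413, with 77.4% identity between neighbouring positions 1 period apart over the whole coding sequence, and the other two units shown above are 84.4 and 77.8% identical to the first. Of its words, 54.9% occur more than once within it. Only 0.202% of 52410 coding sequences reach 30% by that measure. The protein cores of mucins hold tandem repeats, but no protein sequence was examined here.

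Reads on Gm9573 were 2, 0 and 0 for anti-B7-H3, 2, 4 and 2 for anti-PD1, and 61, 42 and 90 with IgG. The antibody libraries were at or near 0, and anti-B7-H3 replicates 2 and 3 allow up to 0.221 and 0.208 CPM outside satellite genes. Pooled reads put the IgG level at 488-fold that with anti-B7-H3, with an exact 95% interval of 133 to 4059 for counting error only, since the anti-B7-H3 libraries held 2 reads against 193. The fitted log2 fold change against IgG was -9.32 ± 1.15 for anti-B7-H3 and -7.06 ± 0.99 for anti-PD1. With the log2 receptor level of each library as a covariate it was -3.76 and -2.34. Without IgG replicate 3 it was -8.17 and -5.91, and without anti-B7-H3 replicate 1 it was -11.42 for anti-B7-H3.

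Gm9573 was low even in IgG, at 5.83, 2.46 and 14.9 RPKM. The order of the IgG libraries was that of the receptor background, which was 1.38, 0.472 and 2.99 RPKM. Reads predicted from the receptor reads per coding base and its coding length were exceeded by a steady 4.23, 5.20 and 4.98 times in the IgG libraries. In antibody libraries the ratio was 0.468, 0 and 0 for anti-B7-H3 and 0.451, 2.06 and 0.622 for anti-PD1. The level in IgG moved with the background from library to library, while the ratio to it was lower in every antibody library.

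Among mucins and related sialomucins, 21 of 23 names were listed and 10 were tested. With anti-B7-H3 against IgG 4 were lower (Muc4, Muc5ac, Muc5b and Muc6) and 0 higher, where 0.601% of all genes tested were lower, and the median log2 fold change was -3.73, against 0.03 over all genes. With anti-PD1 against IgG 2 were lower (Muc4 and Muc5b) and 0 higher, where 0.401% of all genes were lower, and the median was -3.65, against 0.01. Muc5b, a gel-forming airway mucin, had a log2 fold change of -6.78 ± 0.95 for anti-B7-H3 and -5.82 ± 0.91 for anti-PD1, and Muc4, a membrane mucin, -6.61 ± 0.93 and -5.29 ± 0.87. The abundant sialomucins of blood vessels and stroma were not past the threshold, among them Cd34 (0.08 ± 0.20 and 0.16 ± 0.20) and Cd164 (-0.19 ± 0.20 and -0.22 ± 0.20).

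Those mucins also sat near the receptor background in IgG. Observed over predicted reads in the IgG libraries were 0.927 to 1.16 for Muc5b, 1.18 to 1.64 for Muc4 and 0.633 to 1.21 for Muc5ac. Muc6, a gastric mucin named for its count above, was closest to Gm9573: 0 to 0.515 with anti-B7-H3, 1.03 to 2.11 with anti-PD1 and 4.88 to 5.12 with IgG. Mucl3, the listed neighbour of Gm9573 toward higher coordinates, had 1, 4 and 8 reads in the anti-B7-H3, anti-PD1 and IgG libraries and was not tested. The summed level of 8 genes of secretory or simple epithelium was 4.12 to 8.29 CPM with anti-B7-H3, 4.70 to 8.90 with anti-PD1 and 7.61 to 30.3 with IgG. IgG thus overlapped both antibody groups, and 0 of 8 were at 0 pooled reads in any group. Cdh1, the 1 tested, was not past the threshold (log2 -0.56 ± 0.49, adjusted p = 0.738, and -0.35 ± 0.49, adjusted p = 0.736, edgeR). With IgG, Cdh1, Krt4, Krt8 and Krt19 reached 1.91, 2.02, 2.19 and 2.63 RPKM, below the highest receptor background of 2.99. Krt18, Krt13, Krt7 and Epcam reached 3.14, 3.16, 4.65 and 5.05 RPKM. The part of the epithelial sum in the mucin values was not tested.

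Gm5591 (chr7:38518139-38528193, minus strand) has 2568 coding bases in 3 exons, and 88.5% of its words recur on the same strand in 30 other genes. The pseudogene Gm1988 at chr7:39170500-39174260 holds 82.7% of them, so reads could be split among copies by the authors' counting and the value of any 1 copy is uncertain. Reads were 12, 6 and 6 for anti-B7-H3, 10.998, 7 and 11.003 for anti-PD1, and 44.018, 26.004 and 46.003 with IgG. The groups did not overlap in reads, and the IgG libraries ranged from 2.86 to 14.3 RPKM.

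Set against the receptor background, the groups were not separated for Gm5591. Observed over predicted reads were 5.27, 6.73 and 6.51 for anti-B7-H3, 4.66, 6.78 and 6.43 for anti-PD1, and 5.73, 6.05 and 4.78 with IgG. The groups overlapped, and the ratio varied 1.45-fold over all 9 libraries while the RPKM level varied 88.2-fold and the background itself 120-fold. The log2 fold change against IgG was -5.15 ± 0.82 for anti-B7-H3 and -4.37 ± 0.79 for anti-PD1 on the TMM scale. With the log2 receptor level of each library as a covariate it was -0.43 and -0.44.

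Gm5114, a related gene on chromosome 7 and a listed neighbour of Gm5591, had 0 to 0.200 RPKM with anti-B7-H3, 0.056 to 0.553 RPKM with anti-PD1 and 1.87 to 10.1 RPKM with IgG. Its observed over predicted reads were 0 to 5.02 with anti-B7-H3, 1.17 to 5.24 with anti-PD1 and 3.38 to 4.64 with IgG, so the groups overlapped as for Gm5591. Its log2 fold change against IgG was -6.15 ± 1.12 with anti-B7-H3 (adjusted p = 0.0462, edgeR) and -4.60 ± 1.03 with anti-PD1 (adjusted p = 0.0710). Only the first was past the threshold, and the difference between the 2 antibodies was not (log2 -1.55 ± 1.14, adjusted p = 0.802).

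The same ratio overlapped between IgG and antibody libraries for 5 more of the 7 genes, and of the 7 only Gm9573 kept its IgG libraries above all antibody libraries. IgG replicate 3 fell within the antibody values for Gm5148 (24.2, where antibody libraries reached 47.9), 1810049J17Rik (9.91, where they reached 24.9) and Gm26566 (6.36, where they reached 12.1). Those antibody values rest on few reads, at most 7.73, 6 and 2 in any antibody library for the 3 genes. On pooled reads the ratio for Gm5148 was 23.2 with anti-B7-H3, 12.8 with anti-PD1 and 93.1 with IgG. In the same order it was 12.2, 12.0 and 60.2 for 1810049J17Rik and 5.44, 2.18 and 43.3 for Gm26566. Cnbd2 ranged from 34.6 to 293 over antibody libraries and from 28.7 to 180 over IgG. For Tlcd2 the ratio, not the level, was lower in IgG on pooled reads, at 427 for anti-B7-H3, 218 for anti-PD1 and 137 for IgG. With the receptor level as a covariate the log2 fold changes against IgG were -1.06 and -1.67 for Tlcd2 and -3.04 and -3.49 for Cnbd2, anti-B7-H3 and then anti-PD1, and between -8.40 and -6.31 for Gm5148, 1810049J17Rik and Gm26566.

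**Figure D3:**
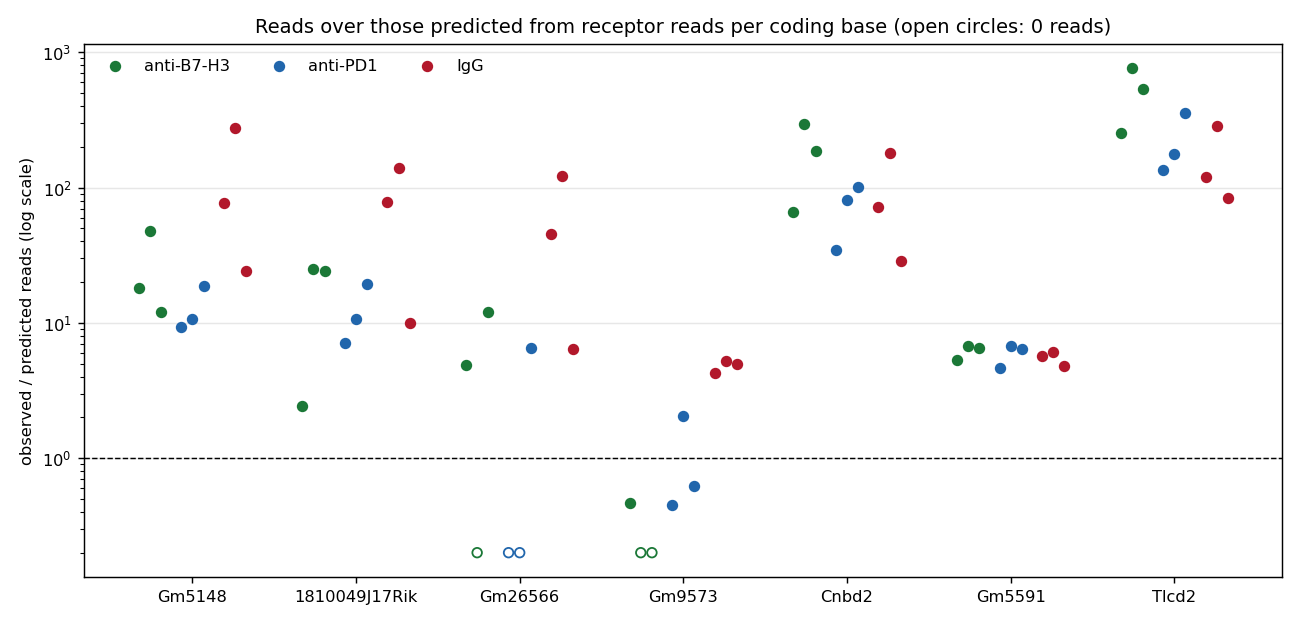
Reads of each gene divided by the reads predicted from olfactory and vomeronasal receptor reads per coding base in the same library, on a log axis, with a dashed line at 1 and open circles for 0 reads. Gm5591 stays between 4.66 and 6.78 in all 9 libraries, Gm9573 is above 4 only in IgG, and Cnbd2 and Tlcd2 are far above 1 in every library.

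Cnbd2 (chr2:156312299-156375638, plus strand) had reads assigned to it in all groups, most of them on 1 of its 3 listed transcripts. It had 119, 206 and 136 reads with anti-B7-H3, 64.4, 66 and 135 reads with anti-PD1, and 436, 611 and 217 reads with IgG. In RPKM these were 8.13, 7.49 and 4.68 for anti-B7-H3, 5.98, 3.92 and 6.96 for anti-PD1, and 99.3, 85.2 and 85.7 with IgG. The IgG libraries lay within 85.2 to 99.3 RPKM although their receptor background differed 6.33-fold. The log2 fold change against IgG was -4.05 ± 0.30 for anti-B7-H3 and -4.30 ± 0.31 for anti-PD1.

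The difference lay in 1 of the 3 listed transcripts. Cnbd2-202, the shortest with 1278 coding bases, had 12.1, 10.5 and 6.38 RPKM with anti-B7-H3, 8.995, 5.70 and 10.1 RPKM with anti-PD1, and 157, 135 and 135 RPKM with IgG. Cnbd2-201, with 2022 coding bases, had 7.34, 22.96 and 18.8 reads with anti-B7-H3, 3.14, 5.44 and 11.7 reads with anti-PD1, and 1.00, 1.00 and 1.01 reads with IgG. In RPKM Cnbd2-201 had 0.501, 0.835 and 0.646 for anti-B7-H3, 0.292, 0.324 and 0.604 for anti-PD1, and 0.229, 0.140 and 0.399 with IgG, so that IgG lay below anti-B7-H3 and overlapped anti-PD1. Cnbd2-203 was listed at 0 reads in all 9 libraries.

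As a share of Cnbd2 reads, Cnbd2-201 made up 10.4% ± 3.87 with anti-B7-H3, 7.27% ± 2.08 with anti-PD1 and 0.287% ± 0.159 with IgG (SD, n = 3 each). The groups of antibody libraries overlapped, from 4.88 to 13.8%, and each was above every IgG library. Transcripts of 1 gene share exons, and these are the authors' estimates of how reads divide among them.

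**Figure D4:**
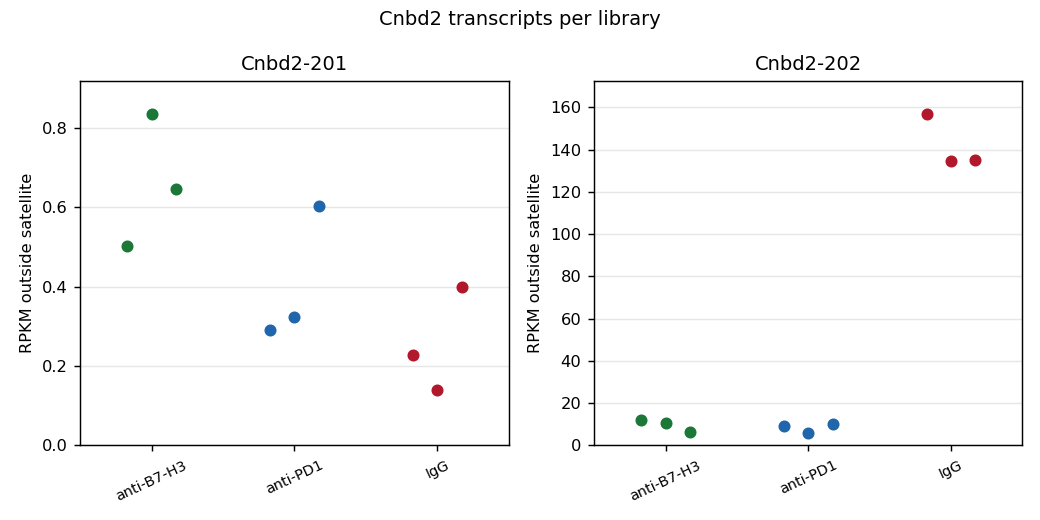
RPKM outside the satellite genes of Cnbd2-201 (left) and Cnbd2-202 (right) in every library, on linear axes from 0 with different ranges. Cnbd2-202 is at 135 to 157 in IgG and at most 12.1 with antibody, while Cnbd2-201 is at 0.501 to 0.835 with anti-B7-H3 and at most 0.399 in IgG.

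The part of Cnbd2-202 that no other Cnbd2 transcript holds is its last 389 coding bases, 890 to 1278, at chr2:156356526-156356914. Of these, 338 lie in the stretch that recurs elsewhere, from base 920 to 1257. The words of Cnbd2-202 occur in 326 other genes on the same strand and in 340 on the opposite strand. Cep85, which encodes a centrosomal protein and holds the largest share on the same strand (24.7% of words), had 12.7 ± 0.526 RPKM with anti-B7-H3, 10.9 ± 0.640 RPKM with anti-PD1 and 12.3 ± 2.13 RPKM with IgG (SD, n = 3 each). It was not past the threshold against IgG (log2 -0.24 ± 0.23, adjusted p = 0.773, and -0.46 ± 0.23, adjusted p = 0.320, edgeR). Where in the transcript the reads fell cannot be seen in these tables, so the part of the recurring stretch was not tested.

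A pair of further genes overlaps Cnbd2 on the opposite strand. The antisense RNA gene Gm14252 covers 22.997% of the words of Cnbd2-202 and 14.4% of those of Cnbd2-201. Scand1, which encodes a SCAN-domain protein, covers 7.13% of the words of Cnbd2-201 and none of Cnbd2-202. Scand1 had 37.5 ± 9.02 RPKM with anti-B7-H3, 26.8 ± 3.17 RPKM with anti-PD1 and 59.9 ± 34.3 RPKM with IgG (SD, n = 3 each), and its log2 fold changes of -0.94 ± 0.31 and -1.43 ± 0.32 were not past the threshold (adjusted p = 0.253 and 0.0684, edgeR).

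Of the tested genes with cyclic nucleotide-binding domains, only Cnbd2 was past the threshold against IgG. All 27 on the list were found and 17 were tested. Cnbd2 was the 1 called lower and 0 were called higher in each comparison with IgG, and the median log2 fold change was -0.09 for anti-B7-H3 and -0.33 for anti-PD1. Prkar1a, the most abundant, which encodes a regulatory subunit of protein kinase A, stood at -0.02 ± 0.17 and 0.12 ± 0.17. Cngb1 and Hcn2 had large negative values that were not past the threshold. Cngb1 stood at -4.69 ± 1.03 and -3.87 ± 0.99 (adjusted p = 0.0790 and 0.0996, edgeR). Hcn2 stood at -2.85 ± 0.68 and -2.98 ± 0.70 (adjusted p = 0.0910 and 0.0744, edgeR). Markers of male germ cells, where Cnbd2 is best known, were at or near 0: of 10 such genes 0 were tested, Prm1 and Tnp1 had 0 reads in all libraries, and the sum over the list was 0.347 to 0.691 CPM with anti-B7-H3, 0.730 to 2.63 with anti-PD1 and 1.13 to 20.0 with IgG.

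Tlcd2 (chr11:75461715-75470899, plus strand) was the most evenly shared of the 7. It had 210, 247 and 178 reads with anti-B7-H3, 116, 67 and 221 reads with anti-PD1, and 334, 445 and 295 reads with IgG. In RPKM these were 31.1, 19.5 and 13.2 for anti-B7-H3, 23.3, 8.63 and 24.7 for anti-PD1, and 165, 134 and 252 with IgG. Unlike Cnbd2, the IgG libraries differed, with replicate 3 the highest and replicate 2 the lowest, the order of the receptor background. The log2 fold change against IgG was -3.49 ± 0.54 for anti-B7-H3 and -3.63 ± 0.54 for anti-PD1.

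Both Tlcd2 transcripts moved the same way. Tlcd2-201, with 933 coding bases, held 98.0% ± 1.48 of Tlcd2 reads with anti-B7-H3, 93.8% ± 3.52 with anti-PD1 and 96.3% ± 0.945 with IgG (SD, n = 3 each), and the groups overlapped. Tlcd2-202, with 567, had 0.947, 0.176 and 0.762 RPKM with anti-B7-H3, 3.69, 0.898 and 1.04 RPKM with anti-PD1, and 12.9, 7.50 and 12.2 RPKM with IgG. The recurring stretch of Tlcd2-201 is 62 bases long, at coding bases 780 to 841 (chr11:75470410-75470471), and its words occur in 35 other genes on the opposite strand and 13 on the same strand. It is a small part of the gene, 3.65% of words.

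The TLC domain list had 20 names, 16 of them listed and 11 tested. Tlcd2 was the 1 called lower, and 0 were called higher, in each comparison with IgG. The median log2 fold change was 0.08 for anti-B7-H3 and -0.10 for anti-PD1. Tram1, which aids protein translocation into the endoplasmic reticulum, stood at 0.18 ± 0.24 and 0.35 ± 0.24, and Cers2, a ceramide synthase for very long acyl chains, at 0.19 ± 0.16 and 0.06 ± 0.16.

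Genes beside the 7 on their chromosomes were mostly not past the threshold against IgG. Taking the 2 nearest listed genes on each side gave 28 genes, of which 21 were tested. The 1 called lower with anti-B7-H3 against IgG was Gm5114, and 0 were called with anti-PD1, where 0.601% and 0.401% of all genes tested were lower. The median log2 fold change of these neighbours was -0.06 for anti-B7-H3 and -0.17 for anti-PD1. Phf20 and Epb41l1 beside Cnbd2 stood at 0.01 ± 0.17 and -0.37 ± 0.22 with anti-B7-H3, and Wdr81 and Prpf8 beside Tlcd2 at -0.07 ± 0.24 and 0.12 ± 0.21. Larger negative values that were not past the threshold were those of Scand1, given above, and of Pdzd2 beside 1810049J17Rik, at -1.56 ± 0.60 with anti-B7-H3 (adjusted p = 0.344, edgeR) and -1.53 ± 0.60 with anti-PD1 (adjusted p = 0.209).

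The comparison of the 2 antibodies was not used to choose the genes. No gene of 12980 was called at 0.05 by edgeR between anti-B7-H3 and anti-PD1 (0% called lower and 0% higher), 841 (6.48%) had an unadjusted p under 0.05, and DESeq2 called 24 and limma-voom 0. Among the 7, adjusted p ranged from 0.800 to 0.995. Gm5148 had 0.211 ± 0.154 TMM-normalised CPM for anti-B7-H3 and 0.204 ± 0.106 for anti-PD1 (SD, n = 3 each), a log2 difference of -0.05 with a 95% interval of -1.36 to 1.27. Cnbd2 was the most precisely measured, with 5.10 ± 1.40 CPM with anti-B7-H3 against 4.27 ± 1.27 CPM with anti-PD1 and a log2 difference of 0.25 (-0.36 to 0.87).

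For the other 5 the intervals were wide. Tlcd2 differed by 0.14 (-0.98 to 1.27), Gm5591 by -0.78 (-2.59 to 1.03) and 1810049J17Rik by -0.87 (-2.26 to 0.53) on the log2 scale, anti-B7-H3 over anti-PD1. Gm26566 differed by 0.40 (-2.23 to 3.03) and Gm9573 by -2.25 (-6.02 to 1.51), each from under 10 reads a group. Differences between the antibodies of any size inside these intervals remain compatible with the data.

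Profiles over the 9 libraries were compared with the mean of the 7 among tested genes other than the 7, the receptor genes and the satellite genes. The most alike were Slc24a5 (Pearson r = 0.995), Gm9747 (0.992), Nfe2l3 (0.992), Serinc4 (0.991) and LTO1 (0.985), on log2 CPM. The 9 points share the gap between IgG and antibody libraries, so the values describe likeness only. Slc24a5, a cation exchanger of pigment granules, had 5, 6 and 123 reads in the anti-B7-H3, anti-PD1 and IgG libraries, with 32.2% of its words opposite another gene. Serinc4 had 5, 7 and 100 reads, with 78.7% opposite another gene. Nfe2l3, a transcription factor gene with 7, 11 and 69 reads, and LTO1, with 231, 156 and 366 reads, shared no word with another gene.

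Symbols of the Gm and Rik kind include 5 of the 7 genes, whose calls follow from how they were chosen. Of 1806 such genes outside the satellite set, 402 were tested. With anti-B7-H3 against IgG 19 were lower and 1 higher, with a median log2 fold change of -0.24, and with anti-PD1 against IgG 10 were lower and 0 higher, with a median of -0.21. Without those 5 genes, 14 of 397 (3.53%, against 0.601% of all genes tested) were lower for anti-B7-H3, with a median of -0.24 against 0.03 over all genes. For anti-PD1 5 of 397 (1.26%, against 0.401%) were lower, with a median of -0.20 against 0.01.

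Markers of several cell types differed between the groups beside these genes, as summed CPM outside satellite genes. Keratinocyte markers had 1.40 to 5.39 with anti-B7-H3, 2.40 to 5.44 with anti-PD1 and 24.0 to 55.0 with IgG, with 0 of 6 genes at 0 pooled reads in any group. Of these, 2 were tested: Dsp, a desmosome protein gene, was lower with anti-B7-H3 (log2 -4.08 ± 0.79, adjusted p = 0.0499, edgeR) and not past the threshold with anti-PD1 (-3.78 ± 0.79, adjusted p = 0.0627), and Krt10, a keratin gene, was past it in neither (-3.48 ± 0.71, adjusted p = 0.0574, and -3.44 ± 0.73, adjusted p = 0.0627). The receptor background in the IgG libraries was 0.472 to 2.99 RPKM. In the same libraries Dsp had 1.07 to 2.03 RPKM, Krt5 0.916 to 3.07 RPKM and Trp63 0.414 to 0.902 RPKM, so these lay near it. Krt1, Krt10 and Krt14 reached 3.61, 7.103 and 15.9 RPKM with IgG, and Krt14 was as low as 0.633 RPKM. The part of the background in the keratinocyte sum was not tested. Hepatocyte markers, from a tissue that the samples should lack, had 0.347 to 1.52 CPM with anti-B7-H3, 0.721 to 3.00 with anti-PD1 and 5.13 to 22.2 with IgG. With IgG, Alb had 0.617 to 3.50 RPKM, Serpina1a 0.504 to 2.30, Apoa1 0.355 to 1.74, Ttr 0 to 1.04 and Apob 0.188 to 0.886. These too lay near or below the receptor background. Apob, the 1 tested, was not past the threshold (log2 -3.93 ± 0.97, adjusted p = 0.105, and -2.92 ± 0.93, adjusted p = 0.143, edgeR). Melanocyte markers had 12.4 to 15.5 CPM with anti-B7-H3, 12.4 to 24.6 with anti-PD1 and 18.3 to 39.1 with IgG. Of these 9 genes only Mitf was tested, and it was not past the threshold. Its log2 fold change against IgG was -0.55 ± 0.29 for anti-B7-H3 (adjusted p = 0.551, edgeR) and -0.18 ± 0.29 for anti-PD1 (adjusted p = 0.777, edgeR). Leukocyte markers, of which 0 of 7 tested were called in either comparison, had 565 to 1010 with anti-B7-H3, 452 to 1057 with anti-PD1 and 140 to 393 with IgG. Fibroblast markers overlapped, with 7739 to 12822 with anti-B7-H3, 5596 to 9212 with anti-PD1 and 2627 to 11232 with IgG. Endothelial markers had 99.2 to 155 with anti-B7-H3, 135 to 152 with anti-PD1 and 94.5 to 119 with IgG. The part of these levels in the values of the 7 genes was not tested.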

How the data were processed

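Each of the 9 libraries has a deposited table with estimated counts per transcript, not normalized, and TPM that the authors scaled to effective length, per the file headers; the listed length and effective length are given beside them. No source used here names the quantifier. The submitters' processing notes name FastQC 0.11.8 and GRCm38. Of 58083 transcripts, 57473 matched GENCODE M21, from which names, coordinates and sequences come. Estimated counts were summed per gene and rounded. The fit used edgeR 4.0.16 under R 4.3.3 (TMM, filterByExpr, robust quasi-likelihood fit of all 9 libraries by group, Benjamini-Hochberg at 0.05), with 12980 genes tested and a biological coefficient of variation of 28.5%. The test was run on simulated data first. DESeq2 1.42.0 and limma 3.58.1 were alternatives. Satellite genes share at least 30% of 15-base words with Gm10800. Predicted reads are receptor reads per coding base times coding length.

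The 7 genes, the gene lists and the tests were chosen with earlier results of these data known. Named genes are the 7 and their transcripts, 2 listed neighbours on each side, and list members with the highest mean TPM or smallest p. Also named are the 5 tested genes most like their mean profile, receptor and satellite genes left out. Genes sharing sequence with the 7, and Muc5ac and Muc6, were named after values were seen. A combination arm is not analysed here.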

Additional observations from a re-analysis of the deposited data

How the results depend on the processing

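Fold changes of the 7 genes against IgG were negative under every alternative. The count called lower with anti-B7-H3 against IgG, 78 with edgeR, was 476 with DESeq2 (26 higher), 45 with limma-voom, 38 with satellite genes left out, 919 with no filter beyond 1 read (121 higher), 146 with at least 10 reads in 3 libraries, 20 with only the 2 groups compared and 0 with the log2 receptor level of each library as a covariate (230 at an unadjusted p under 0.05). Leaving out 1 library gave 8 (IgG 1), 444 (IgG 2), 20 (IgG 3), 126, 11 and 10 (anti-B7-H3 1, 2 and 3), 58, 30 and 28 (anti-PD1 1, 2 and 3). With anti-PD1 against IgG the count of 52 became 641 (181 higher), 32, 48, 450 (264 higher), 97, 87 and 5 in the same order of settings, against 1 higher in each with edgeR, and 9 (IgG 1), 418 (IgG 2), 28 (IgG 3), 140, 30 and 46 (anti-B7-H3 1, 2 and 3), 10, 12 and 10 (anti-PD1 1, 2 and 3) without 1 library. With library totals as the scale, the median over all genes was 3.37 and 3.15 (log2), with 12462 higher and 74 lower, and 12293 higher and 48 lower. On that scale Tlcd2 stood at -0.02 and -0.34. Between the antibodies, 24 genes were called with DESeq2, 23 with library totals (21 higher, 2 lower) and 4 with no filter. The cause of these moves was not tested. Of the 7 genes, 5 were called lower in each comparison with library totals and with limma-voom, 4 with anti-B7-H3 when only the 2 groups were fitted, and under the receptor covariate 0 for anti-B7-H3 and 3 for anti-PD1. Chosen after seeing the data, a 90% limit for opposite-strand words left 8 and 6 of 33 genes lower, and leaving out genes with words on their own strand left 8 and 7 of 69.

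Same-numbered libraries correlated between -0.332 and 0.204 in their deviations from group means, and 2 of 9 libraries correlated best with their own number. These values show no sign of pairing by number, but with 3 libraries a group they cannot exclude it. With the replicate block, 102 and 134 genes were called lower against IgG and 0 between the antibodies. Differences between the antibodies near 0 changed sign: Gm5148 to 0.16 with library totals, 0.0502 with the receptor covariate and -0.51 to 0.49 without 1 library, Gm5591 to 0.00705 with the receptor covariate, Gm26566 to between -0.20 and 2.90 and Tlcd2 to between -0.23 and 0.40 without 1 library. The smallest adjusted p of the 7 was 0.546 over all these fits. Depth limits the IgG libraries most, whose reads outside satellite genes were the fewest.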
